A study of Mus musculus with 18 samples.

Results

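Dbp, Tef, Hlf, Nfil3, Noct and Rgs16 are 6 liver genes whose transcripts follow the circadian clock. They were taken by symbol, as every probe set whose platform annotation names exactly 1 of the 6 symbols. This gave 12 of the 45101 probe sets of the array, and the probe set of highest mean over the 18 arrays stands for its gene. All 6 genes passed the filter on low signal and lie among the 12169 genes tested.

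The livers came from 18 female B6C3F1 mice, 5 weeks old at the start and 18 weeks old at the end of 13 weeks of exposure, with 3 mice in each of 6 groups and 1 Affymetrix mouse expression array per mouse. 3 chemicals were mixed into feed given 7 days per week: 1,5-naphthalenediamine (NDA) at 2000 ppm, N-(1-naphthyl)ethylenediamine dihydrochloride (NEDD) at 2000 ppm and pentachloronitrobenzene (PCNB) at 8187 ppm. 2,3-benzofuran was given in corn oil by gavage at 240 mg/kg on 5 days per week. The feed control group received rodent chow and the corn oil control group the vehicle alone. The study classes NDA and benzofuran as positive liver carcinogens, and NEDD and PCNB as negative. Dose groups were single, so no dose response can be read, and the benzofuran group differs from the feed groups in route as well as in chemical. The labels used here give no hour of day at which livers were taken.

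Dbp, Tef and Hlf encode the PAR bZIP transcription factors, which bind the D-box and activate genes of drug, haem and lipid metabolism in liver. Nfil3 (E4BP4) encodes a bZIP repressor of the same element, and its transcript normally runs opposite in phase to Dbp. In the core clock, BMAL1 (Arntl) with CLOCK or NPAS2 activates Dbp, Nr1d1, Nr1d2 and the Per and Cry genes through E-boxes, and the REV-ERB repressors made from Nr1d1 and Nr1d2 hold down Arntl, Npas2, Cry1 and Nfil3. Noct encodes nocturnin, a phosphatase of NADP(H) once classed as a deadenylase, whose transcript is strongly rhythmic in liver. Rgs16 encodes a GTPase-activating protein for Gi and Gq alpha subunits, rhythmic in hepatocytes and responsive to feeding.

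Promoters are shown for the members that moved together or in opposition (Dbp, Tef and Nfil3) and for Noct, whose values separated the 2 classes of chemical. RefSeq (build GRCm38.p6) gave 7 windows for the 6 genes, Tef having 2, and the 250 bases before each annotated start were searched on both strands. Capitals mark CACGTG (E-box), TGACG (cAMP response element half-site) or AGGTCA (ROR half-site), read here on either strand.
Dbp, chr7:45704997-45705246, plus strand: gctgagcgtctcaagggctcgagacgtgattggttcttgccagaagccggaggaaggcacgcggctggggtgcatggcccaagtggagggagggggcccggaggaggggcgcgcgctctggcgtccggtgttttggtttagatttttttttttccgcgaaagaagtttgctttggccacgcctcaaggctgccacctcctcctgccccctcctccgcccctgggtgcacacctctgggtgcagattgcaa
Tef window 1, chr15:81802423-81802672, plus strand: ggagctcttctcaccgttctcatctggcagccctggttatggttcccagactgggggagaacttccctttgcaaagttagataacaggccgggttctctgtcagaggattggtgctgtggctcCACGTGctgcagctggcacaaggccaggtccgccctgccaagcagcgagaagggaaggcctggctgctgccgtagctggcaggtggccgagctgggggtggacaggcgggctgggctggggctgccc
Tef window 2, chr15:81811164-81811413, plus strand: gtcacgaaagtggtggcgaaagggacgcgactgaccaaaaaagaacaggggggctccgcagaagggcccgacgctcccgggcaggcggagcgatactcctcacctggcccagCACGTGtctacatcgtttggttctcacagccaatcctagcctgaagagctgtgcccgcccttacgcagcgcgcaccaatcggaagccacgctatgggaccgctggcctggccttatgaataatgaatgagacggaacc
Nfil3, chr13:52981040-52981289, minus strand: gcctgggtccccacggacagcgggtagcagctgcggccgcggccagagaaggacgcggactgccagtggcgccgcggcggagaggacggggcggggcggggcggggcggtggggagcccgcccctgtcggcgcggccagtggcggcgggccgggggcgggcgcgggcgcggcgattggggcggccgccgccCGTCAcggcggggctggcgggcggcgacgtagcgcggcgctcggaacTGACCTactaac
Noct, chr3:51224197-51224446, plus strand: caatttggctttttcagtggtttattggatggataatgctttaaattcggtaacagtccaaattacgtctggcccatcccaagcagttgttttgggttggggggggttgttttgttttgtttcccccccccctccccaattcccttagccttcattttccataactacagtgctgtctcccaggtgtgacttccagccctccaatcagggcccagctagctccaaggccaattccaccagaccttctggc

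Both Tef windows hold a CACGTG, beginning 127 bases before the start in the first and 138 bases before it in the second. This motif lies in 6.02% of the 32851 windows of this length. The Nfil3 window holds a CGTCA (the reverse of TGACG) beginning 59 bases before the start and a TGACCT (the reverse of AGGTCA) beginning 12 bases before it. TGACG lies in 17.8% and AGGTCA in 14.0% of all windows on either strand. The Hlf window, not printed, holds the full TGACGTCA beginning 9 bases before the start, which 1.55% of windows hold and which contains TGACG on both strands. No window of the 6 genes holds CACGTT (in 3.85% of all windows) or the D-box letters TTATGTAA or TTACGTAA (in 0.931%), and the Dbp, Noct and Rgs16 windows hold none of the motifs. These are matches of letters in a short stretch and say nothing of binding.

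Array medians ran from 4.25 to 4.35 (log2 signal) and every pair of arrays correlated between 0.979 and 0.995 over probe sets. The hepatocyte genes Alb, Apoa1, Apoa2, Ttr and Fgb lay at the top of the scale in all livers. RNA integrity numbers were lower in the NEDD livers (7.83 ± 0.231, SD, n = 3) than in the feed controls (8.9 ± 0.173). The lowest number of all animals was that of corn oil control 24, at 7.4. The 3' minus 5' signal of beta-actin, which grows as RNA degrades, was 1.45 to 1.85 in the NEDD arrays and 0.90 to 1.00 in the feed controls. In NDA animal 4 it was 1.75, within the NEDD range. 18S probe sets were high on 5 arrays, NEDD animals 12 and 14, benzofuran animals 6 and 10 and NDA animal 4.

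The first feature of the 6 genes was their spread between animals given the same treatment. The pooled within-group SD of Dbp was 1.97 on the log2 scale, against 0.154 for the median gene, and larger than that of 99.99% of the genes tested. Rgs16 (1.05), Nfil3 (0.700), Tef (0.571) and Noct (0.506) also exceeded 99.9%, 99.7%, 99.4% and 99.0% of genes in this order, whereas Hlf (0.226) exceeded 84.5%. Control mice were far apart too. Dbp in the feed controls was 4.00 in animal 27, 4.11 in animal 28 and 7.53 in animal 29. In the corn oil controls it was 5.40 in animal 22, 10.08 in animal 24 and 10.33 in animal 25. The SE of a Dbp change between 2 groups of 3 animals was 1.31.

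**Figure D1:**
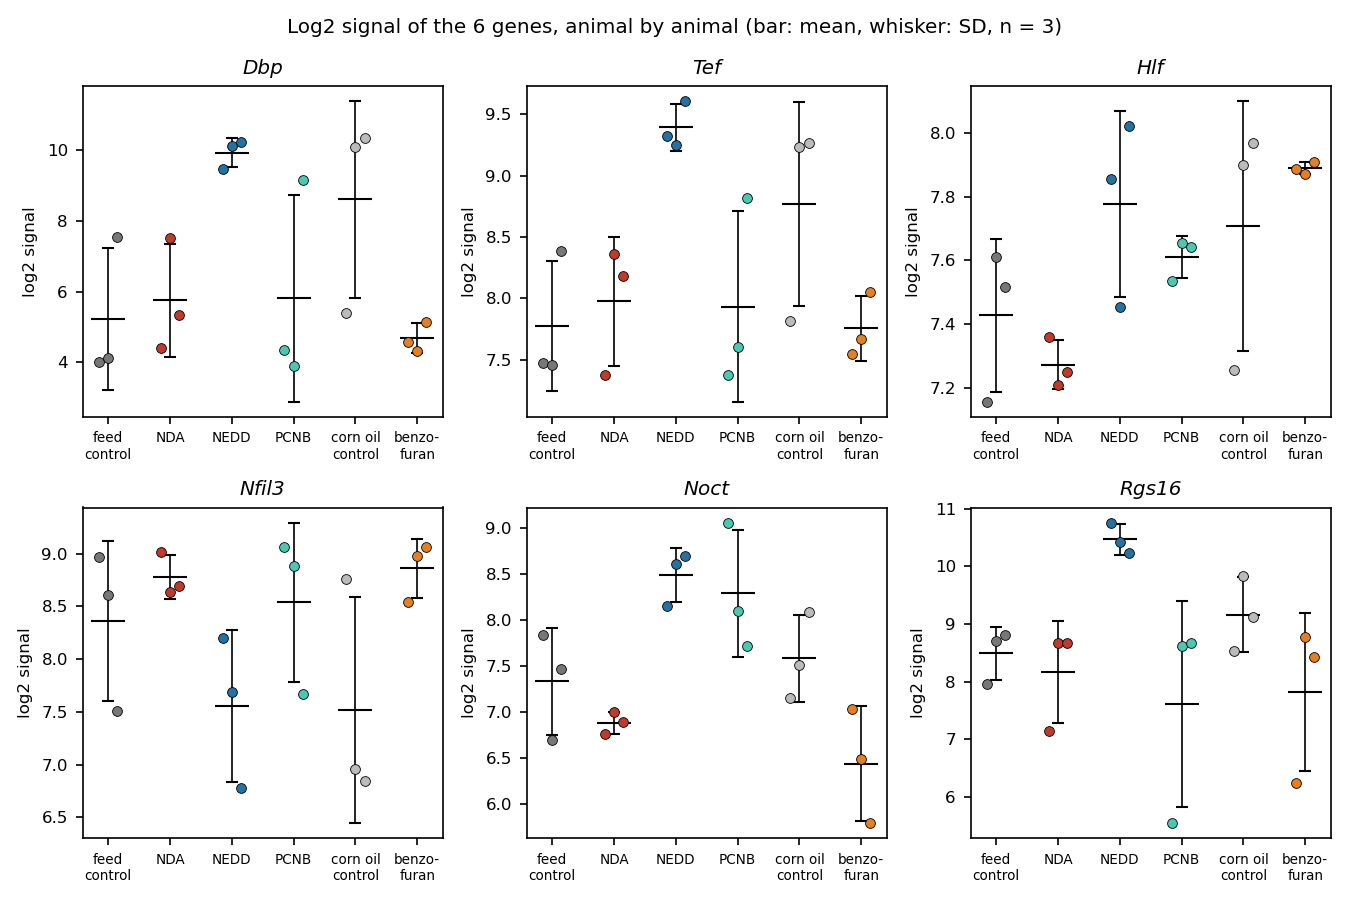
Log2 signal of the chosen probe set of each gene (y axis) in each of the 18 animals, by group (x axis), with points in order of animal number; the bar is the group mean and the whisker the SD (n = 3). Dbp, Tef and Nfil3 split within the feed control, corn oil control and PCNB groups, with 1 animal of each away from the others. The 3 NEDD animals lie alone at the top for Rgs16. For Dbp and Tef they lie high together with corn oil controls 24 and 25.

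Dbp was high in all 3 NEDD livers, at 9.45, 10.10 and 10.23 in animals 12, 14 and 15, and low in all 3 benzofuran livers, at 4.59, 4.33 and 5.15 in animals 6, 8 and 10. In the PCNB livers it was 4.35 in animal 16, 3.90 in animal 18 and 9.17 in animal 20. In the NDA livers it was 4.40 in animal 2, 7.53 in animal 4 and 5.33 in animal 5. The 18 arrays fell into separate clusters, 10 at or below 5.40 and 8 at or above 7.53, an empty stretch of 33.0% of the range of Dbp. NEDD was the group with no array in the low cluster and benzofuran the group with none in the high one, and every other group had animals in both. By mean the order was NEDD (9.93 ± 0.416, SD, n = 3), corn oil control (8.61 ± 2.78), PCNB (5.81 ± 2.92), NDA (5.75 ± 1.61), feed control (5.21 ± 2.01) and benzofuran (4.69 ± 0.415), and no step between neighbours exceeded their pooled SD.

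Tef, the second PAR bZIP gene, followed Dbp over a narrower range. It was 9.32, 9.25 and 9.61 in the NEDD livers and 7.54, 7.67 and 8.05 in the benzofuran livers. The feed controls were 7.47, 7.46 and 8.38 and the corn oil controls 7.81, 9.23 and 9.26, so that the control animals with high Dbp were also those with high Tef. PCNB animal 20 (8.82) and NDA animals 4 (8.36) and 5 (8.18) stood above the others of their groups, which lay between 7.38 and 7.60. In the order of means NEDD (9.39 ± 0.190) and corn oil control (8.77 ± 0.829) differed from their lower neighbours by more than the pooled SD, and NDA, PCNB, feed control and benzofuran, from 7.98 to 7.75, did not.

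Hlf, the remaining PAR bZIP gene, had a narrow range. Its 18 values lay between 7.16 and 8.02, a range of 0.866 against 0.779 for the median gene. The benzofuran livers were 7.89, 7.87 and 7.91, the highest group mean (7.89 ± 0.0188), and the NDA livers were 7.36, 7.21 and 7.25, the lowest (7.27 ± 0.0777). The other 4 groups had means between 7.43 and 7.78, and of the steps in the order of means only that from PCNB (7.61) to feed control (7.43) exceeded the pooled SD.

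Nfil3, the repressor, was low in most animals with high Dbp. It was lowest in the corn oil controls 24 and 25 (6.96 and 6.84) and in NEDD animal 15 (6.78), and highest in PCNB animal 16 (9.06), benzofuran animal 10 (9.06), NDA animal 2 (9.02) and feed control 27 (8.97). The odd animal of each split group was odd again: corn oil control 22 (8.76) stood above its group, and feed control 29 (7.51) and PCNB animal 20 (7.67) below theirs. The NDA (8.63 to 9.02) and benzofuran (8.54 to 9.06) livers were uniformly high. NEDD animals 12 and 14 held 8.20 and 7.69. In the order of means, benzofuran (8.86 ± 0.282), NDA (8.78 ± 0.207), PCNB (8.54 ± 0.758) and feed control (8.36 ± 0.758) did not differ beyond the pooled SD, the step to NEDD (7.56 ± 0.720) did, and that to corn oil control (7.52 ± 1.07) did not.

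Noct, the nocturnin gene, sorted the groups differently. It was 8.15, 8.61 and 8.70 in NEDD animals 12, 14 and 15, and 9.06, 8.10 and 7.72 in PCNB animals 16, 18 and 20. It was 6.76, 7.00 and 6.90 in NDA animals 2, 4 and 5, and 7.04, 6.49 and 5.79 in benzofuran animals 6, 8 and 10. The feed controls (7.84, 6.70 and 7.47) and corn oil controls (7.15, 7.52 and 8.09) lay between and overlapped both. The order of means was NEDD (8.49 ± 0.294), PCNB (8.29 ± 0.694), corn oil control (7.59 ± 0.474), feed control (7.34 ± 0.585), NDA (6.88 ± 0.121) and benzofuran (6.44 ± 0.623). The steps from PCNB to corn oil control and from feed control to NDA exceeded the pooled SD, and those between NEDD and PCNB, between the controls and between NDA and benzofuran did not.

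Rgs16, the G protein regulator, was highest in the NEDD livers, at 10.76, 10.42 and 10.23. The feed controls were 7.97, 8.71 and 8.80 and the corn oil controls 8.54, 9.83 and 9.12. In each of the other treated groups 1 animal was far below the others: PCNB animal 16 at 5.55 against 8.62 and 8.66, benzofuran animal 6 at 6.25 against 8.77 and 8.44, and NDA animal 2 at 7.14 against 8.68 and 8.67. PCNB animal 16, the lowest of the 18 for Rgs16, was the highest for Noct. NEDD and corn oil control means (10.47 ± 0.269 and 9.16 ± 0.648) lay above their lower neighbours by more than the pooled SD, and the 4 lower groups (8.50 to 7.61) did not differ beyond theirs.

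Changes below are on the log2 scale relative to the shift of the median tested gene, since on the deposited scale that gene lay higher by 0.18 with NDA, 0.11 with benzofuran, 0.15 with NEDD and 0.15 with PCNB. A gene is called where limma's adjusted p on the deposited scale was under 0.05.

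With NEDD 4 of the 6 members rose, Dbp, Tef, Noct and Rgs16, and Hlf and Nfil3 were not called. Dbp was 4.56 ± 1.31 (SE) higher than in feed controls, a 23.6-fold difference (limma, adjusted p = 0.0142, n = 3 per group). The Dbp signals of feed controls 27 and 28 (4.00 and 4.11) lay under the medians of their arrays. The second Dbp probe set held 8.17 to 8.81 in the NEDD livers and 4.64 to 6.40 in the feed controls, a smaller difference. Tef rose by 1.47 ± 0.385 (adjusted p = 0.0065), Rgs16 by 1.82 ± 0.698 (adjusted p = 0.0417) and Noct by 1.00 ± 0.344 (adjusted p = 0.0199). The Tef rise was seen on the chosen probe set alone, and neither of its other probe sets, given below, was called. For these 4 genes every NEDD array lay above every feed control array. Hlf (0.20 ± 0.167, adjusted p = 0.119) and Nfil3 (-0.96 ± 0.470, adjusted p = 0.202) were not called. Of all tested genes 29.1% were called, and the separation of arrays was shown by 31% of genes in the same direction.

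RNA quality moved with the NEDD group, as given above, and its part in these calls was not separated from the treatment. With the beta-actin 3' minus 5' signal as a covariate, the changes were 2.02 for Dbp (adjusted p = 0.465), 0.70 for Tef (0.333), 0.93 for Rgs16 (0.528) and 1.15 for Noct (0.176), none called. With the RNA integrity number as a covariate, Dbp (3.58, adjusted p = 0.200), Tef (1.01, 0.170) and Rgs16 (0.66, 0.577) were not called, and Noct was. Leaving out the 5 arrays of high 18S signal removes NEDD animals 12 and 14 and leaves animal 15 alone in its group, assumed to vary like the others. None of the 4 was then called, with changes of 4.88 for Dbp, 1.70 for Tef, 1.60 for Rgs16 and 1.23 for Noct that were of about the same size as with all arrays. Over all genes, 44 were called in this comparison with the beta-actin covariate, 352 with the integrity covariate and 529 without those 5 arrays, in place of 3536. Leaving out single animals kept the Dbp and Tef calls in all 6 cases, ended the Rgs16 call in all 6 (adjusted p up to 0.122), and ended the Noct call without feed control 28 (0.65), NEDD animal 14 (0.93) or NEDD animal 15 (0.88). Centring the arrays or quantile normalization ended the Noct (adjusted p = 0.068 and 0.080) and Rgs16 (0.087 and 0.100) calls and turned no direction. With the 2 kinds of control pooled, the Dbp change was 2.89 (adjusted p = 0.087).

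Benzofuran gave the opposite picture against corn oil controls. Dbp fell by 4.03 ± 1.31 (16.3-fold, adjusted p = 0.0295) and Noct fell by 1.26 ± 0.344 (2.39-fold, adjusted p = 0.0173), each with all 3 benzofuran arrays below all 3 controls. Nfil3 rose by 1.23 ± 0.470 (adjusted p = 0.0365), although its arrays overlapped because corn oil control 22 (8.76) lay within the benzofuran range. Tef (-1.12 ± 0.385, adjusted p = 0.0511), Rgs16 (-1.45 ± 0.698, adjusted p = 0.149) and Hlf (0.07 ± 0.167, adjusted p = 0.423) were not called. This makes 3 of 6 members, against 32.3% of all genes. The separation of arrays seen for Dbp and Noct was shown by 13.6% of genes in the same direction.

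The size of the benzofuran change depended on the corn oil controls. The benzofuran livers lay far below corn oil controls 24 and 25 in Dbp, while their mean of 4.69 was close to that of the feed controls (5.21). The second Dbp probe set held 4.43 to 4.94 in the benzofuran livers and 5.05 to 8.82 in the corn oil controls. Against all 6 controls pooled, the Dbp change was -2.36 (adjusted p = 0.169) and the Nfil3 change 0.78 (adjusted p = 0.090), neither called. The Dbp call was lost on leaving out any animal of the comparison except corn oil control 22 (values from -5.61 to -3.17, adjusted p up to 0.127). The Nfil3 call was lost without benzofuran animals 8 or 10 or corn oil controls 24 or 25 (0.89 to 1.18), and with quantile normalization (1.13) or centring (1.23). The Noct call was lost without benzofuran animal 10 (-0.93) or corn oil control 25 (-1.01), and it was kept with the pooled controls. Without the arrays of high 18S signal, which leaves benzofuran animal 8 alone in its group, none of the 3 was called (-4.38 for Dbp, -1.20 for Noct, 1.36 for Nfil3). Tef was called in 10 of the 21 alternatives run, among them both of its other probe sets (-1.02 and -1.05).

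PCNB and NDA called none of the 6 genes against feed controls by limma's adjusted p. At an unadjusted p under 0.05, 1 member passed with PCNB and 0 with NDA, where 4517 and 6106 of the 12169 tested genes did. With PCNB 18.5% of all tested genes were called and with NDA 39.9%. The nearest was Noct with PCNB, 0.81 ± 0.344 higher (95% interval 0.09 to 1.53, adjusted p = 0.0591), which was called without PCNB animal 20 (1.10) or feed control 27 (1.04) and with the RNA integrity covariate (1.01). Noct with NDA was -0.63 ± 0.344 (interval -1.35 to 0.10, adjusted p = 0.301). The Dbp changes were 0.44 with PCNB (interval -2.30 to 3.19) and 0.36 with NDA (interval -2.39 to 3.10), so that neither a rise nor a fall of several-fold could be told from no change in these animals. Corn oil against feed controls called none of the 6 and 0.123% of all genes. There 2 members had an unadjusted p under 0.05, as did 1152 of the 12169 tested genes. Dbp was 3.35 ± 1.31 higher in the corn oil controls (adjusted p = 0.406) and Tef 0.96 ± 0.385 higher (adjusted p = 0.406), with arrays that overlapped.

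**Figure D2:**
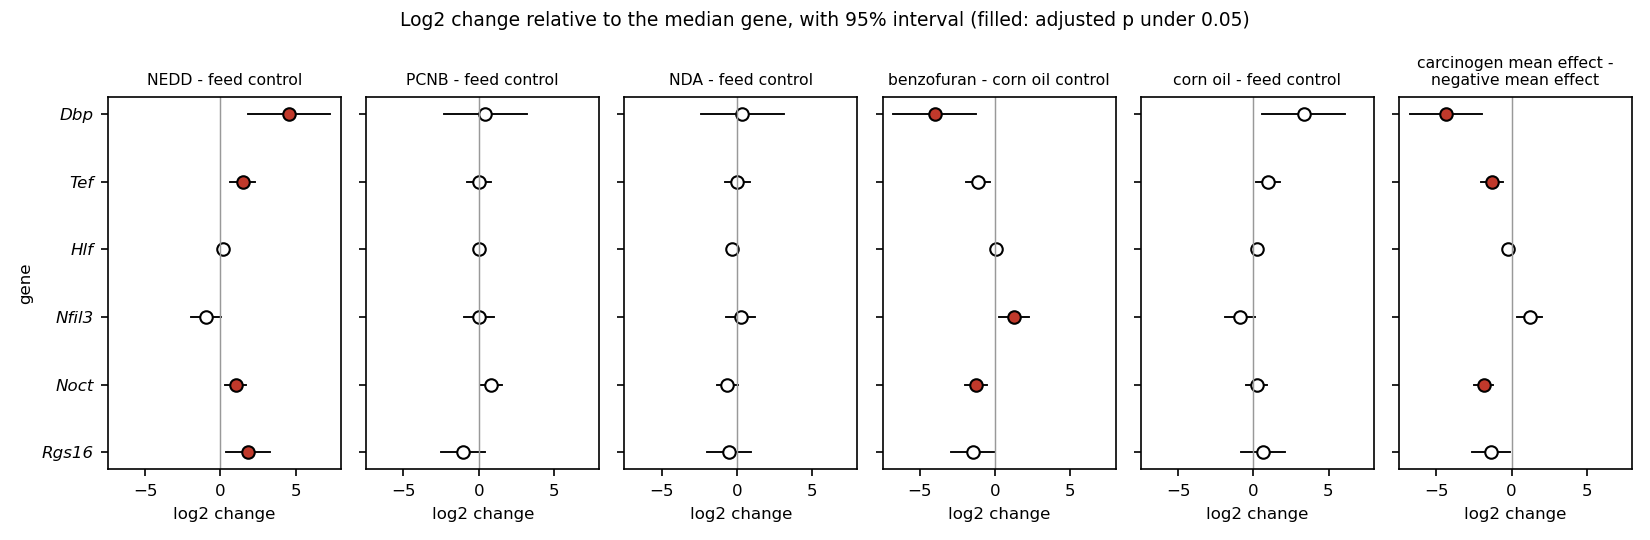
Log2 change relative to the median gene (x axis) of each gene (y axis) in the 5 comparisons with a control and between the classes, with 95% intervals; filled points have an adjusted p under 0.05. Called changes lie with NEDD (4 genes, up), benzofuran (Dbp and Noct down, Nfil3 up) and the class contrast (Dbp, Tef and Noct down).

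The study's own contrast sets the positive liver carcinogens against the negative chemicals, each chemical taken relative to its own control. In it the difference in Noct, carcinogens minus negatives, was -1.85 ± 0.298 (95% interval -2.48 to -1.23, a 3.61-fold difference, adjusted p = 0.000726). Dbp (-4.34 ± 1.13, adjusted p = 0.0237) and Tef (-1.30 ± 0.334, adjusted p = 0.0217) were also called lower. Nfil3 (1.20 ± 0.407, adjusted p = 0.086), Rgs16 (-1.38 ± 0.604, adjusted p = 0.194) and Hlf (-0.25 ± 0.145, adjusted p = 0.340) were not. These are 3 of 6 members, where 7.2% of all tested genes were called.

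Noct had no overlap between the classes in its deposited signal. The 6 carcinogen arrays lay from 5.79 to 7.04 (median 6.83) and the 6 arrays of the negative chemicals from 7.72 to 9.06 (median 8.38), while the 6 controls spanned 6.70 to 8.09. Arrays of the classes did not overlap in this direction for 1.58% of tested genes, and for none of the other 5 members. Dbp in the carcinogen livers ran from 4.33 to 7.53 and in the negative ones from 3.90 to 10.23, because PCNB animals 16 and 18 were as low as any. For Dbp and Tef, NEDD lay above its feed controls and benzofuran below the high corn oil controls, while benzofuran means lay near those of the feed controls (Dbp 4.69 and 5.21, Tef 7.75 and 7.77). For Noct both chemicals of each class lay on the same side. With 2 chemicals per class, a difference between classes cannot be told apart from differences between these 4 chemicals.

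The Noct class difference was called in all 30 alternatives run, from -2.41 to -1.66 with adjusted p from 9.29e-05 to 0.0238. It was -1.90 with the beta-actin covariate, -2.41 with the RNA integrity covariate, -1.74 with pooled controls and -1.95 without the 5 arrays of high 18S signal, where its adjusted p was the largest. It was called on leaving out any 1 of the 18 animals. The Dbp difference was not called with the RNA integrity covariate (-3.43), the beta-actin covariate (-3.62), pooled controls (-2.66), without the arrays of high 18S signal (-5.10), or without corn oil control 24 (-3.98) or 25 (-3.91). Tef lost its call in 8 of 33 alternatives, among them both of its other probe sets (-0.64 and -0.95) and corn oil controls 24 (-1.19) or 25 (-1.18) left out.

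**Figure D3:**
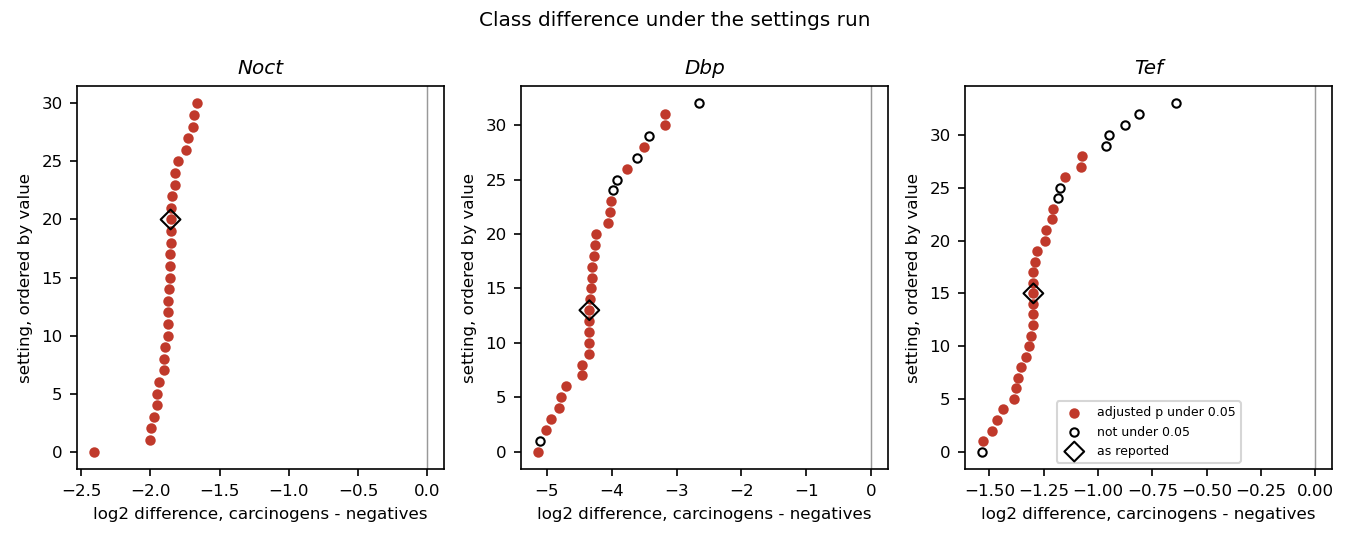
Difference between the mean effects of the positive liver carcinogens and of the negative chemicals (x axis, log2) for Noct, Dbp and Tef, 1 point per processing setting or animal left out, ordered by value (y axis); filled points have an adjusted p under 0.05 and the diamond is the value as reported. All Noct points are filled and lie between -2.41 and -1.66, and Dbp and Tef have open points.

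Of 8 Kupffer cell markers, which mark the macrophages of liver, 2 were called with NDA (39.9% of all genes were) and 3 with benzofuran (32.3%), all lower, and none with NEDD or PCNB. Their summed signal was 2215 to 3364 in NDA and 2758 to 4391 in feed control livers, and 2569.9 to 3191 in benzofuran and 3593 to 4496 in corn oil control livers, and none was at 0. Their part in the Noct result was not tested, and in whole liver fewer cells of a type cannot be told apart from less RNA per cell.

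NDA and NEDD are both naphthalenes with amines, NDA with an amino group on each ring and NEDD with an ethylenediamine chain on 1 ring, and both were fed at 2000 ppm for 13 weeks. Among the 6 pairs of chemicals this is the pair matched in dose, route and control. Noct was 1.60 ± 0.344 higher with NEDD than with NDA (95% interval 0.88 to 2.32, adjusted p = 0.00974), and Tef 1.41 ± 0.385 higher (interval 0.61 to 2.22, adjusted p = 0.0383), 2 of 6 members against 5.47% of all genes. Rgs16 (2.30, interval 0.84 to 3.77, adjusted p = 0.0605), Dbp (4.18, interval 1.43 to 6.92, adjusted p = 0.0692), Hlf (0.50, interval 0.15 to 0.85, adjusted p = 0.0869) and Nfil3 (-1.22, interval -2.21 to -0.24, adjusted p = 0.143) were not called, although the arrays of the 2 groups did not overlap for any of the 6. Arrays did not overlap for 11.4% of genes in the higher and 13.7% in the lower direction. The p-values are adjusted over all genes within the pair. The Noct difference was called in 17 of 18 alternatives and not without the arrays of high 18S signal (1.87, adjusted p = 0.110). The Tef difference was called in 9 of 21.

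Between the other pairs doses or routes differ, so effects are set side by side, and the tests of each difference gave 9 calls among 36 over all 6 pairs, against 2.69% of all genes for NEDD with PCNB, 4.03% for NDA with PCNB, 5.59% for NEDD with benzofuran, 2.89% for PCNB with benzofuran and 0.961% for NDA with benzofuran. The 3 feed chemicals share their controls. With NEDD and with PCNB, the Noct changes were 1.00 and 0.81 and their difference was 0.17 (interval -0.56 to 0.89), while the Rgs16 changes were 1.82 and -1.03 and the Tef changes 1.47 and 0.01. Without PCNB animal 16 the Rgs16 difference between NEDD and PCNB went from 2.83 to 1.79 and was not called. With NDA and with benzofuran, the Noct changes were -0.63 and -1.26, the Dbp changes 0.36 and -4.03 and the Nfil3 changes 0.24 and 1.23.

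Of the 10 pairs without Dbp, 3 were correlated over the 18 arrays, which the permutations shuffled without regard to group. Differences between groups therefore enter these p-values together with covariation between animals of a group. Of the variance of Tef, Nfil3 and Rgs16, 63.1%, 47.3% and 56.1% lay between groups, against 58.7% for the median gene. Over all 18 arrays Tef and Nfil3 were opposed (Pearson r = -0.86, Spearman rho = -0.79, permutation adjusted p = 0.000112 and 0.000825), Tef and Rgs16 ran together (r = 0.79, rho = 0.83, adjusted p = 0.000112 and 0.000525), and Nfil3 and Rgs16 were opposed (r = -0.58, rho = -0.73, adjusted p = 0.0257 and 0.0024). Without the 2 arrays farthest from the median on the first gene of each pair, r was -0.88, 0.72 and -0.55. None of the other 7 pairs among Tef, Hlf, Nfil3, Noct and Rgs16 passed an adjusted p of 0.05 over the 15 pairs computed. Noct and Rgs16 had r = 0.15 over 18 arrays, 0.62 without PCNB animal 16 and benzofuran animal 10, so that the low value rests on those arrays. Deviations from group means, a description with no test, had r = -0.85 for Tef and Nfil3 and 0.58 for Tef and Rgs16. For Nfil3 and Rgs16 this r was weaker, at -0.29, and for Noct and Rgs16 it was -0.60.

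For Dbp no pooled test is reported, since its arrays fell into separate clusters. Its pairs were nevertheless computed and are among the 15 whose p-values were adjusted together. The permutations within clusters also took no account of group. Within the 8 arrays of high Dbp, Dbp and Tef had r = 0.94 (exact permutation p = 0.00305, adjusted p = 0.0305 over 10 relations), and within the 10 arrays of low Dbp r = 0.79 (permutation p = 0.00823, adjusted p = 0.0411). By rank the adjusted p-values were 0.153 (exact permutation test, rho = 0.81) and 0.289 (permutation test, rho = 0.50). No other relation of Dbp within a cluster passed. Deviations from group means had r = 0.95 for Dbp and Tef, -0.86 for Dbp and Nfil3, 0.43 for Dbp and Rgs16 and 0.01 for Dbp and Noct. Within the clusters Dbp and Nfil3 had r = -0.66 at high Dbp (exact permutation adjusted p = 0.156) and -0.17 at low Dbp (permutation adjusted p = 0.725), and Dbp and Noct had r = 0.76 at high Dbp (exact permutation adjusted p = 0.0785) and -0.43 at low Dbp (permutation adjusted p = 0.307).

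**Figure D4:**
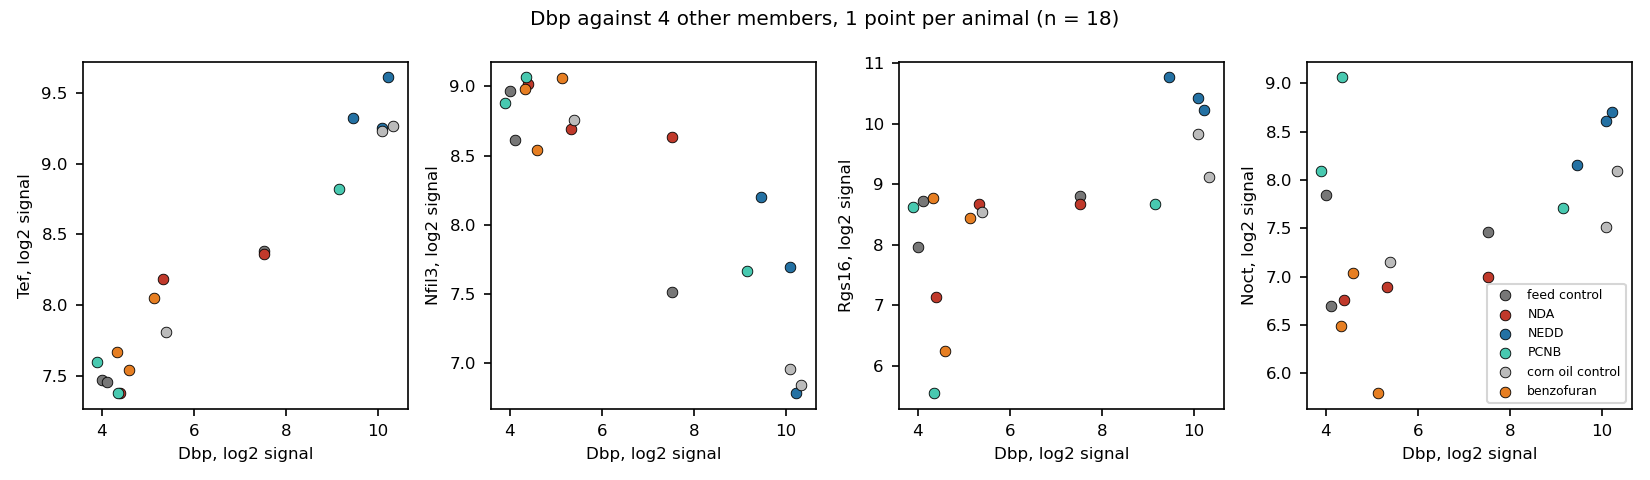
Log2 signal of Tef, Nfil3, Rgs16 and Noct (y axes) against that of Dbp (x axes), 1 point per animal and 18 in each panel, coloured by group. Tef climbs and Nfil3 drops from the 10 animals with Dbp at or below 5.40 to the 8 at or above 7.53, while Noct spans 5.79 to 9.06 among the 10 animals of low Dbp.

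Several core clock genes followed the Dbp pattern animal by animal, as correlations over arrays of the same 6 groups that are given as a description. The tested genes most like Dbp over the 18 arrays, outside the 6, were Nr1d2 (r = 0.94), which encodes REV-ERB beta, Per3 (0.90), Jade1 (0.90), Spata2l (0.89) and Tbc1d10a (0.88). Those most opposed were Cry1 (-0.94), Lgalsl (-0.94), Npas2 (-0.93), Slc16a1 (-0.92) and Arntl (-0.92). Arntl, which encodes BMAL1, was 5.71, 5.54 and 5.96 in the NEDD livers and 5.69 and 5.27 in corn oil controls 24 and 25, and between 6.86 and 7.99 in the other 13 animals. The 2 corn oil control animals with NEDD-like Dbp therefore had NEDD-like Arntl. Nr1d2 was 9.70, 9.85 and 9.87 in the NEDD livers, 9.77 and 9.86 in those 2 controls and 9.65 in PCNB animal 20, and at most 8.98 elsewhere.

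By comparison, 10 of the 15 core clock genes tested were called with NEDD (6 higher and 4 lower, median change 0.37), where 29.1% of all genes were, and 7 of 15 with benzofuran (4 higher and 3 lower, median -0.35), where 32.3% were. With NDA 3 of 15 were called (39.9% of all genes), with PCNB 2 of 15 (18.5%) and with corn oil 0 of 15 (0.123%). These counts depended on scaling and on single animals. With centred arrays NEDD gave 2 higher and 4 lower and benzofuran 3 higher and 6 lower. Shares of all genes, here and for the lists below, are for the deposited scale, and none is given for centred arrays. The benzofuran count was 2 without corn oil control 25 and 3 without corn oil control 24 or benzofuran animals 6 or 8, and the NEDD count was 5 without NEDD animal 15 and 6 without feed control 27. With NEDD, Per1 (1.42 ± 0.284, adjusted p = 0.00167) and Per3 (1.20 ± 0.289, adjusted p = 0.00373) rose, and Npas2 (-1.80 ± 0.348, adjusted p = 0.00353), Arntl (-1.86 ± 0.406, adjusted p = 0.00657) and Cry1 (-1.25 ± 0.364, adjusted p = 0.0326) fell, Npas2 and Cry1 to means under the array medians. With benzofuran, Arntl (1.52 ± 0.406, adjusted p = 0.00602), Clock (0.70 ± 0.226, adjusted p = 0.0117) and Cry1 (1.09 ± 0.364, adjusted p = 0.0185) rose, and Nr1d2 (-1.38 ± 0.452, adjusted p = 0.0385) and Per3 (-0.91 ± 0.289, adjusted p = 0.0408) fell. Csnk1d, a kinase that marks PER proteins for turnover, fell with all 4 chemicals (-0.75 with NEDD, -0.72 with NDA, -0.56 with PCNB, -0.53 with benzofuran), with adjusted p-values from 0.000311 to 0.00878. Leaving out the 5 arrays of high 18S signal leaves NEDD animal 15 and benzofuran animal 8 alone in their groups. Fewer core clock genes were then called with both chemicals, as were fewer of all genes, so no core clock count is read from that setting.

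**Figure D5:**
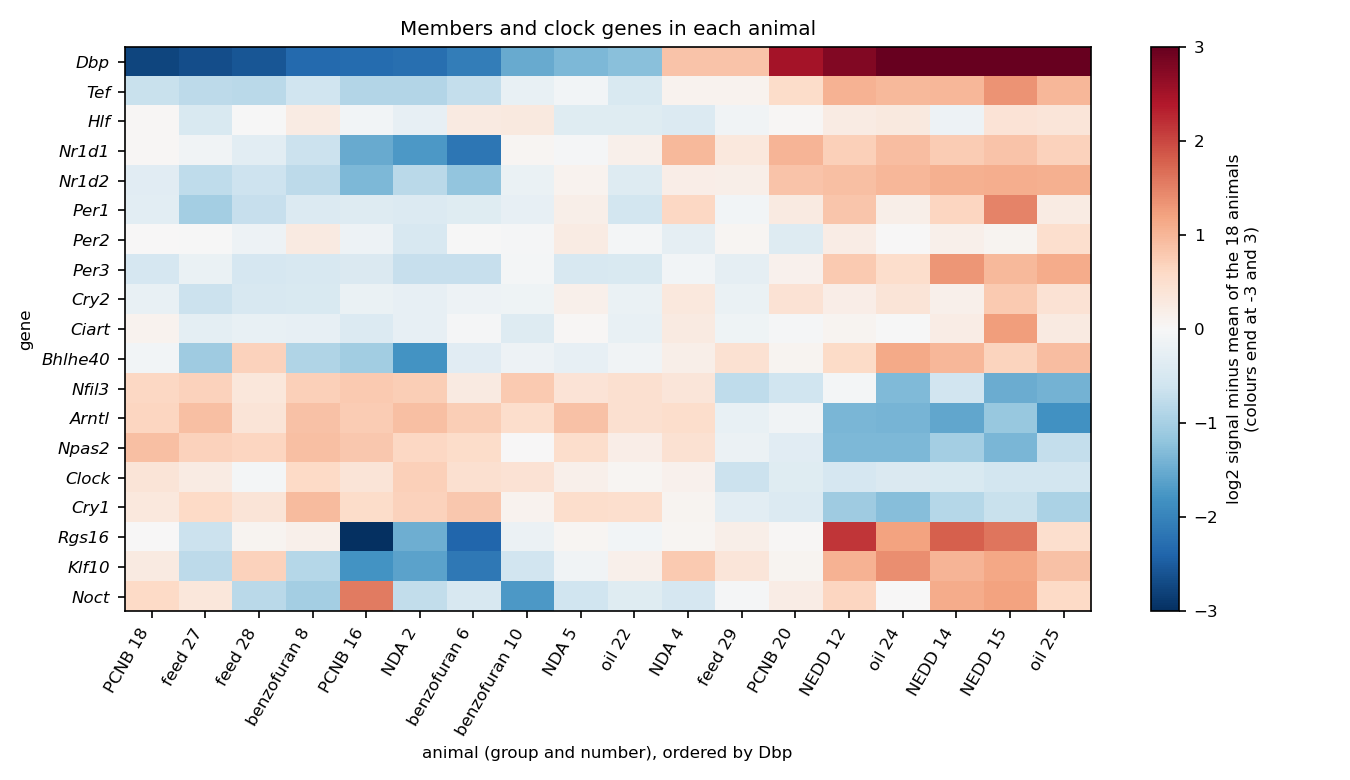
Log2 signal minus the mean of the 18 animals (colour, ending at -3 and 3) of the 6 genes, core clock genes and Klf10 (rows) in each animal (columns), ordered from the lowest to the highest Dbp. Animals of different groups stand side by side, with corn oil controls 24 and 25 among the NEDD animals at the right. Arntl, Npas2 and Cry1 are low there. Nfil3 is low there too, except in NEDD animal 12, where it lies near its mean.

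Rgs16 and Noct had other companions. The genes most like Rgs16 were Klf10 (r = 0.89), a Krüppel-like repressor that is both clock driven and glucose responsive, Ppp1r3g (0.85), which encodes a glycogen-targeting phosphatase subunit, Nr1d2 (0.85), Lpin1 (0.85) and Zfp871 (0.84), and those most opposed were Ppard (-0.90), Slc35f6 (-0.85), Gm16551 (-0.85), Mal2 (-0.84) and Atf6b (-0.80). Klf10 was low in the same animals as Rgs16: 5.54 in PCNB animal 16, 5.18 in benzofuran animal 6 and 5.72 in NDA animal 2. Klf10 and Rgs16 had r = 0.90 for deviations from group means. The genes most like Noct were Abcc5 (0.81), Proc (0.80), Tent5a (0.79), Gm11267 (0.79) and Apoa1 (0.78), and those most opposed Magt1 (-0.78), Col5a3 (-0.77), Ldhd (-0.76), Ptgr1 (-0.76) and Vps45 (-0.74), none of them from the core clock list. For Proc the deviations from group means had r = 0.00342, so that its likeness to Noct lay between the groups.

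Genes known as PAR bZIP targets did not follow the direction of Dbp. Of 5 tested (Alas1, Nr1i3, Cyp2b10, Cyp7a1 and Ppara), 4 were higher with NEDD (median 0.91), 3 with benzofuran (0.38), 3 with PCNB (0.52) and 2 with NDA (0.52), and none was lower in any of these. The share of all genes called was 29.1%, 32.3%, 18.5% and 39.9% in this order. The NEDD count was 1 with centred arrays, with quantile normalization or without NEDD animal 12, and 2 without feed control 28 or 29 or NEDD animal 15. Centring and quantile normalization added 1 lower gene with NDA. Cyp2b10, a cytochrome P450 of drug metabolism, rose by 1.08 ± 0.365 with NEDD (adjusted p = 0.0191), 1.63 ± 0.365 with NDA (adjusted p = 0.00139) and 1.87 ± 0.365 with PCNB (adjusted p = 0.00276). Alas1, the rate-limiting enzyme of haem synthesis, rose by 0.91 ± 0.352 with NEDD (adjusted p = 0.0314) and by 1.53 ± 0.352 with benzofuran (adjusted p = 0.00222), where Dbp moved in opposite directions. Cyp7a1, the rate-limiting enzyme of bile acid synthesis, rose by 2.37 ± 0.536 with benzofuran (adjusted p = 0.00232) and by 1.68 ± 0.536 with PCNB (adjusted p = 0.029). Over the 18 arrays their r with Dbp lay between -0.24 for Alas1 and 0.13 for Cyp2b10, as a description.

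Other rhythmic outputs of the liver were counted too. Of 11 tested, 5 rose and 2 fell with NEDD (median 0.44), and 3 rose and 3 fell with benzofuran (median -0.51), while with NDA and with PCNB 1 rose and 0 fell, against 29.1%, 32.3%, 39.9% and 18.5% of all genes called. With centred arrays NEDD gave 2 higher and 3 lower, and the benzofuran count of 6 was 2 without benzofuran animal 6 or corn oil control 24 and 3 without corn oil control 25. Elovl3, a fatty acid elongase, fell by 1.73 ± 0.370 with NEDD (adjusted p = 0.00615) and rose by 2.91 ± 0.370 with benzofuran (adjusted p = 1.96e-05). Usp2, a clock-driven deubiquitinase, rose by 0.90 ± 0.253 with NEDD (adjusted p = 0.00671), and Insig2, a sterol sensor, fell by 1.01 ± 0.139 (adjusted p = 0.00122). Klf10 fell by 2.11 ± 0.578 with benzofuran (adjusted p = 0.0141). Txnip, a glucose-responsive gene of the fed-state list and close to Rgs16 over the arrays (r = 0.83), rose by 1.03 ± 0.230 with NEDD (adjusted p = 0.00239) and fell by 1.09 ± 0.230 with benzofuran (adjusted p = 0.00391).

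Relatives of Noct and Rgs16 were also counted, and their direction turned with the scaling. Of 14 deadenylases, NAD kinases and nocturnin relatives, 5 were called with NEDD, 4 with NDA, 3 with benzofuran and 2 with PCNB, all higher on the deposited scale. With centred arrays 0 were higher, and 1 was lower with NEDD, 2 with NDA, 3 with benzofuran and 0 with PCNB. The NEDD count was 1 without feed control 29, 2 without NEDD animal 12 and 3 without NEDD animal 14. Of 16 genes for RGS proteins and G alpha subunits, 5 were higher and 1 lower with NEDD, 4 and 1 with NDA, 3 and 2 with benzofuran and 4 and 0 with PCNB, and with centred arrays 2 and 3, 2 and 8, 1 and 7, and 2 and 2. On the deposited scale the shares of all genes called, 29.1%, 39.9%, 32.3% and 18.5% in the same order, were close to or above most counts. Gna11, which encodes a Gq-type alpha subunit, rose with all 4 chemicals (0.63 with NDA, 0.40 with benzofuran, 0.39 with NEDD, 0.38 with PCNB).

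The other probe sets of a gene followed the chosen one for Dbp and Rgs16 and departed from it for Tef. The second Dbp probe set ranged from 4.43 in benzofuran animal 6 to 8.82 in corn oil control 25, with NEDD at 8.17, 8.68 and 8.81. The 3 Rgs16 probe sets placed PCNB animal 16 lowest, at 5.55, 5.25 and 5.23. For Tef the NEDD rise was seen on the chosen probe set alone. Of the others, the dimmer, which passed the median of the array on 3 of 18 arrays, gave -0.09 (adjusted p = 0.908) and the brighter gave 0.23 (adjusted p = 0.396), although corn oil controls 24 and 25 were the highest on both (5.22 and 5.32 on the dimmer, 6.66 and 6.62 on the brighter). The second Hlf probe set was 0.39 higher with NEDD (adjusted p = 0.012). Noct and Nfil3 each rest on a single probe set.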

How the data were processed

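Total liver RNA of 18 mice was hybridised to 1 array per mouse. The deposited values are log2 signals per probe set; how the authors corrected background, normalized and summarized them is not given in the sources used here. Control probe sets were left out, and a probe set was kept where its signal passed the median of the array in at least 3 of 18 arrays. Of 34945 probe sets with 1 gene, 34741 were matched through Entrez identifiers to the RefSeq gene symbol, which was then used. The probe set of highest mean stands for each of 12169 genes. A group-means model was fitted in limma 3.58.1 (R 4.3.3) to all 18 arrays (12 residual degrees of freedom, prior variance trended on mean signal), and p-values were adjusted by Benjamini-Hochberg over all genes. Correlations used two-sided permutation tests with 100000 resamples, exact below 10 arrays, and arrays were shuffled across groups. Groups are those of the labels, and replicates are separate animals. The fit was tested on simulated data. Beyond the 6 members with all their probe sets, genes were named as at most 3 called genes of largest t from each list and comparison, and as the 5 most like and most unlike Dbp, Noct and Rgs16 over the arrays. A few clock and target genes outside these are given because a result turns on them. Cell type markers were taken as lists too. The members and lists were chosen with earlier results of these data known. Alternatives covered normalization, filter, probe set choice, array weights, covariates, pooled controls and each animal left out; the beta-actin covariate, the set without the arrays of high 18S signal and the centred correlations were chosen after seeing the data.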

Additional observations from a re-analysis of the deposited data

Results flagged for a closer look

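For 9 of the 36 differences between the effects of 2 chemicals on a member, the test of the difference itself passed an adjusted p of 0.05 (limma, over all genes). Feed chemicals share the feed controls, so the differences are not independent of each other.

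Noct differed in 4 of the 6 pairs. It was 1.60 higher with NEDD than with NDA, and -1.44 for NDA minus PCNB (adjusted p = 0.025, against 4.03% of genes called). Relative to their own controls, the effect of NEDD exceeded the effect of benzofuran by 2.27 (adjusted p = 0.00907), and the effect of PCNB exceeded the effect of benzofuran by 2.10 (adjusted p = 0.0215). These 4 pairs each set a carcinogen against a negative chemical, and the pairs NEDD with PCNB (0.17, adjusted p = 0.817) and NDA with benzofuran (0.67, adjusted p = 0.629), within a class, were not called. The NDA minus PCNB call was kept on leaving out 1 of 6 animals, PCNB animal 20.

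Tef differed in 3 pairs, being 1.41 higher with NEDD than with NDA, 1.43 higher than with PCNB (adjusted p = 0.0499, against 2.69% of genes) and 2.61 higher for the NEDD effect than for the benzofuran effect (adjusted p = 0.00819). The first 2 of these calls were each kept on leaving out 1 of 6 animals (limma, adjusted p up to 0.154 and 0.230), and that against benzofuran in all 12 cases. The difference from PCNB was called in 6 of 21 alternatives. Dbp differed in 1 pair, the NEDD effect exceeding the benzofuran effect by 8.60 ± 1.85 (adjusted p = 0.00991, against 5.59% of genes), and Rgs16 in 1, with NEDD 2.83 above PCNB (adjusted p = 0.0335). Without PCNB animal 16 the Rgs16 difference was 1.79 (adjusted p = 0.178).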

How the results depend on the processing

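No paired analysis was possible because the groups share no animal numbers. The limits are the size and the settings: 3 animals per group and 1 array per animal leave wide intervals for genes as variable as Dbp and Rgs16, the deposited signals hold no background measure, and probe sets of low mean (Npas2, Cry1, the dimmer Tef probe set) lie near or under the array medians. The Dbp signals of feed controls 27 and 28 and PCNB animal 18 were also under the medians of their arrays. The cause of the moves given here was not tested, except that fewer arrays or groups in a fit leave fewer degrees of freedom. Of the member values, 484 of the results under other settings kept direction and side of the threshold, 75 lost a call, 14 gained one and 34 changed sign. With 1 animal left out, 289 kept both, 47 lost a call, 7 gained one and 23 changed sign.

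Counts of called genes were 4859 with NDA, 3936 with benzofuran, 3536 with NEDD, 2249 with PCNB and 15 for corn oil against feed. Quantile normalization gave 2961 with NDA, 1757 with NEDD, 892 with PCNB and 8 for corn oil, and centred arrays gave 8 for corn oil. Array weights gave 2224 with NEDD. Fitting only the groups compared gave 2752 with NDA, 1490 with NEDD, 400.0 with PCNB and 6 for corn oil. With the RNA integrity number as a covariate NEDD had 352 genes, the pairs of chemicals 4 member calls in place of 9 and the classes 1 in place of 3. With the beta-actin covariate NEDD had 44 genes and the pairs 3 calls. Pooled controls left 1 member called between the classes. Without probe sets of shared sequence the pairs had 5 calls. Without the 5 arrays of high 18S signal there were 2772 genes with NDA, 886 with benzofuran, 529 with NEDD, 4 for corn oil, 0 member calls between pairs and 1 between classes. The last setting, the beta-actin covariate and centring for correlations (4 pairs in place of 3) were chosen after seeing the data. No shared-sequence alternative could be run for Noct and Rgs16, nor pooled controls for corn oil against feed.

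No sign change touched a called member value except for Tef with NEDD on the dimmer probe set (-0.094) and its difference from PCNB there (-0.18). The others touched values that were not called, and the new values reached -1.31, for Dbp with NDA on pooled controls. Quantile normalization gave -0.057 for Tef with NDA, -0.061 for Tef with PCNB, -0.018 for Hlf with benzofuran, -0.030 for Hlf and -0.0082 for Nfil3 with PCNB. A filter at the array median plus 1 gave -0.038 for Tef with NDA and, with PCNB, -0.033 for Tef, -0.011 for Hlf and -0.021 for Nfil3. The mean of all kept probe sets gave -0.24 for Tef with NDA, -0.10 for Hlf with benzofuran and -0.0018 for Hlf with PCNB. Dbp with NDA was -0.094 without shared-sequence probe sets and -0.10 on its second probe set. Array weights gave -0.014 for Hlf with benzofuran and -0.13 for Nfil3 with PCNB. The RNA integrity covariate gave -0.14 for Tef and -0.021 for Hlf with PCNB. Pooled controls gave -1.31 for Dbp and -0.44 for Tef with NDA, and -1.23 for Dbp, -0.46 for Tef and -0.079 for Hlf with PCNB. The beta-actin covariate gave -0.82 for Dbp and -0.32 for Tef with NDA and -0.057 for Tef with PCNB. Without the arrays of high 18S signal Dbp with NDA was -0.51 and Tef -0.15. The other Tef probe sets gave -0.28 and -0.56 with NDA, and the second Hlf probe set -0.31 with benzofuran and -0.073 with PCNB.

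With 1 animal left out at a time, the counts ran from 3306 to 4970 with NDA, 1839 (without NEDD animal 12) to 3689 with NEDD, 656 (without feed control 29) to 2505 with PCNB and 3 to 83 for corn oil. The member values that changed sign, none of them called, ran as follows. With NDA, Dbp ran from -0.51 to 1.58, Tef from -0.16 to 0.40, Nfil3 from -0.12 to 0.53 and Rgs16 from -0.78 to 0.012. With PCNB, Dbp ran from -1.24 (without PCNB animal 20) to 1.66 (without feed control 29), Tef from -0.43 to 0.38, Hlf from -0.12 to 0.14, Nfil3 from -0.34 to 0.46 and Rgs16 from -1.56 to 0.00011 (without PCNB animal 16). Hlf with benzofuran ran from -0.14 to 0.20 and Noct for corn oil from -0.14 to 0.45.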

Other observations

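Other regulators of the liver's daily and feeding state were counted in the same way, beside 29.1% of all genes called with NEDD, 39.9% with NDA, 32.3% with benzofuran and 18.5% with PCNB. Of 12 genes of the fed state and of ChREBP, the glucose-responsive transcription factor, 5 were higher with NEDD and 3 lower with benzofuran, and with centred arrays 2 were higher with NEDD and 6 lower with benzofuran. With NDA 2 were higher and 1 lower (0 and 3 when centred), and with PCNB 0 were called (2 lower when centred). Without feed control 29 the NEDD count was 2. Of 10 fasting genes, 2 were higher and 1 lower with NEDD (1 and 1 when centred), and 2 lower with benzofuran (3 when centred). With NDA 2 were higher (1 higher and 2 lower when centred), and with PCNB 1 was lower, as when centred. Without feed control 28, NEDD gave 4 higher and 0 lower fasting genes. Of 8 glucocorticoid-responsive genes, 3 were higher with NEDD, as many when centred, and 3 with NDA and 1 with PCNB, 0 when centred. Of 10 other bZIP transcription factors, such as the C/EBP and ATF genes, 6 were higher with NEDD, 4 with NDA, 2 with benzofuran and 1 with PCNB. With centred arrays 3 were higher and 1 lower with NEDD, 0 were called with NDA and with PCNB, and 2 were higher and 1 lower with benzofuran.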
